A study of Homo sapiens with 84 samples.

Results

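The genes described here were 10 textbook players of epithelial-to-mesenchymal transition (EMT): the transcription factors SNAI1, SNAI2, ZEB1, ZEB2, and TWIST1, the cadherins CDH1, CDH2, and CDH3, the intermediate filament gene VIM, and the extracellular matrix gene FN1. They were chosen by symbol, and the matching Ensembl identifiers gave 10 of the 58395 genes in the count files. RNA had been measured by 3′ mRNA sequencing (QuantSeq 3′ FWD, which counts tags near the end of a transcript) in 2 established human cancer lines, Kyse30 from an esophageal squamous carcinoma and FaDu from a pharyngeal one. The study asked what EGF and EpEX, 2 ligands of the EGF receptor, do to the transcriptome early and late. All cells were serum-starved before treatment and stayed without serum throughout. Groups were untreated cells (Ctrl) at 0, 6, and 72 h, and cells treated for 6 or 72 h with EGFlow (EGF at 1.8 nM), EGFhigh (EGF at 9 nM), EpEX (the extracellular domain of the adhesion protein EpCAM, fused to immunoglobulin Fc), EGFhigh together with EpEX, or the Fc region alone, which served as control of EpEX. Each line stands for a single tumor, and nothing in the labels says whether replicates of a group were separate cultures, so p-values measure only the spread between these libraries.

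EMT is the program by which epithelial cells loosen their junctions and gain motility. E-cadherin, the product of CDH1, holds epithelial cells together in adherens junctions. P-cadherin (CDH3) does so in basal layers of squamous epithelia, and N-cadherin (CDH2) in mesenchymal and neural cells. The factors of the SNAIL, ZEB, and TWIST families are known as repressors of CDH1 and inducers of mesenchymal genes, among them VIM, which encodes the intermediate filament vimentin, and FN1, which encodes fibronectin, a matrix glycoprotein bound by integrins.

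The promoter of FN1 is shown because FN1 had the largest change of the 8 members tested in Kyse30 with EGFhigh at 72 h. The 250 bases before the RefSeq start of FN1 lie on the minus strand of GRCh38.p14 at chr2:215436069-215436318. The capitals mark the palindrome TGACGTCA, the letters of the cyclic AMP response element, which begins 183 bases before the start.
FN1: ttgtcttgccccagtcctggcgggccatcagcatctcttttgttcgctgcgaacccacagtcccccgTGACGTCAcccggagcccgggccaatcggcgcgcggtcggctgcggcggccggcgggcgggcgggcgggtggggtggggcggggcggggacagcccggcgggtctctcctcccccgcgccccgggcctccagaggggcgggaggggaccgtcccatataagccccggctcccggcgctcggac
Of each of 34943 RefSeq promoter windows, the 250 bases before the start were searched, and the letters TGACGTCA occurred on either strand in 1.63%. The letters TGANTCA (AP-1), CACCTG (E-box of the SNAIL and ZEB type), and, on the forward strand only, TATAAA did not occur in these bases of FN1. They were found in 6.59%, 17.5%, and 6.82% of all windows. Such matches describe the letters of a window only. RefSeq windows were at hand for 5 of the 10 genes.

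The series held 84 libraries, of which 43 were from Kyse30 in 13 groups of 3 or 4. Total counts on genes were 1944948 to 11759799 per library in Kyse30 and 6217938 to 12442349 in the 20 FaDu libraries of replicates 3 and 4. The 21 libraries labelled FaDu replicates 1 and 2 stood apart from these in the members themselves, with VIM between 5.40 and 2828 CPM (the read count scaled to library size) against 0.339 to 2.79, and they entered no main comparison. Their 8 fibroblast markers summed to 6.27 to 5503 CPM and their 10 squamous markers to 142 to 18960 CPM. Whether each of them holds the cells its label names was not tested. In Kyse30, 5 libraries deviated from their group means by a root mean square over 0.5 on the log2 scale across 10251 genes, against 0.177 to 0.257 in FaDu replicates 3 and 4. The 5 Kyse30 libraries were EGFhigh 72 h replicate 1, EGFlow 72 h replicate 1, Fc 72 h replicates 2 and 3, and EGFhigh+EpEX 6 h replicate 3. These deviations are not scaled for group size, and the FaDu groups have only 2 libraries. Scaled for it, the 5 lay at 0.588 to 0.682 and FaDu at 0.250 to 0.364. By the scaled measure EGFhigh+EpEX 6 h replicate 1, EpEX 6 h replicate 1 (0.505 each), and EGFhigh 72 h replicate 3 (0.503) also exceeded 0.5. Both lines carried squamous markers, whose 10 genes summed to 1501 to 3885 CPM in Kyse30 and 2081 to 5944 CPM in FaDu. In Kyse30, 8 of the 10 had a median of at least 10 CPM, KRT5 and KRT14 not among them, and 1 had a median under 1 CPM. In FaDu 9 of the 10 had a median of at least 10 CPM, with KRT5 and KRT14 among them. All 5 leukocyte markers had a median of 0 in both lines. Of the 8 fibroblast markers, 3 had a median of 0 in Kyse30 and 5 in FaDu, with DCN and LUM in both. The fibroblast marker COL1A1 had a median of at least 10 CPM in Kyse30. The 8 fibroblast markers summed to 10.6 to 47.9 CPM in Kyse30 and 7.07 to 15.8 CPM in FaDu. In such bulk samples, fewer cells of a type and less RNA per cell cannot be told apart.

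The depth decided which members could be judged. In Kyse30, 8 of the 10 members passed the filter on low counts and were tested. SNAI1 was at 0 in 22 of 43 libraries and at 3 counts or fewer in 40. ZEB2 was at 3 counts or fewer in 25 libraries, with a highest level of 1.45 CPM. Both were too low to judge in Kyse30, where 3 counts amount to 0.255 to 1.54 CPM depending on the library. Such floors cover counting error only. ZEB1 was tested but lay close to this floor, at a median of 1.06 CPM (0.198 to 2.86), and its locus overlaps the antisense gene ZEB1-AS1, with a median of 0.775 CPM in Kyse30. Since the strand setting of the counting is not given in the sources used here, reads of overlapping antisense genes could not be told apart from those of the members.

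The other 7 members exceeded 3 counts in every Kyse30 library, but TWIST1 and CDH2 came close to this floor, with lowest counts of 4 and 5. The median over 43 libraries was 24.2 CPM for SNAI2 (5.05 to 58.3), 5.75 CPM for TWIST1 (1.42 to 14.6), and 3.61 CPM for CDH2 (1.10 to 16.2). It was 190.4 CPM for CDH1 (39.9 to 313), 270 CPM for CDH3 (153 to 583), 41.6 CPM for VIM (19.5 to 99.2), and 79.2 CPM for FN1 (13.01 to 836). By the ratio of the highest to the lowest level, FN1 had the widest range of these 7 members and CDH3 the narrowest.

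**Figure D1:**
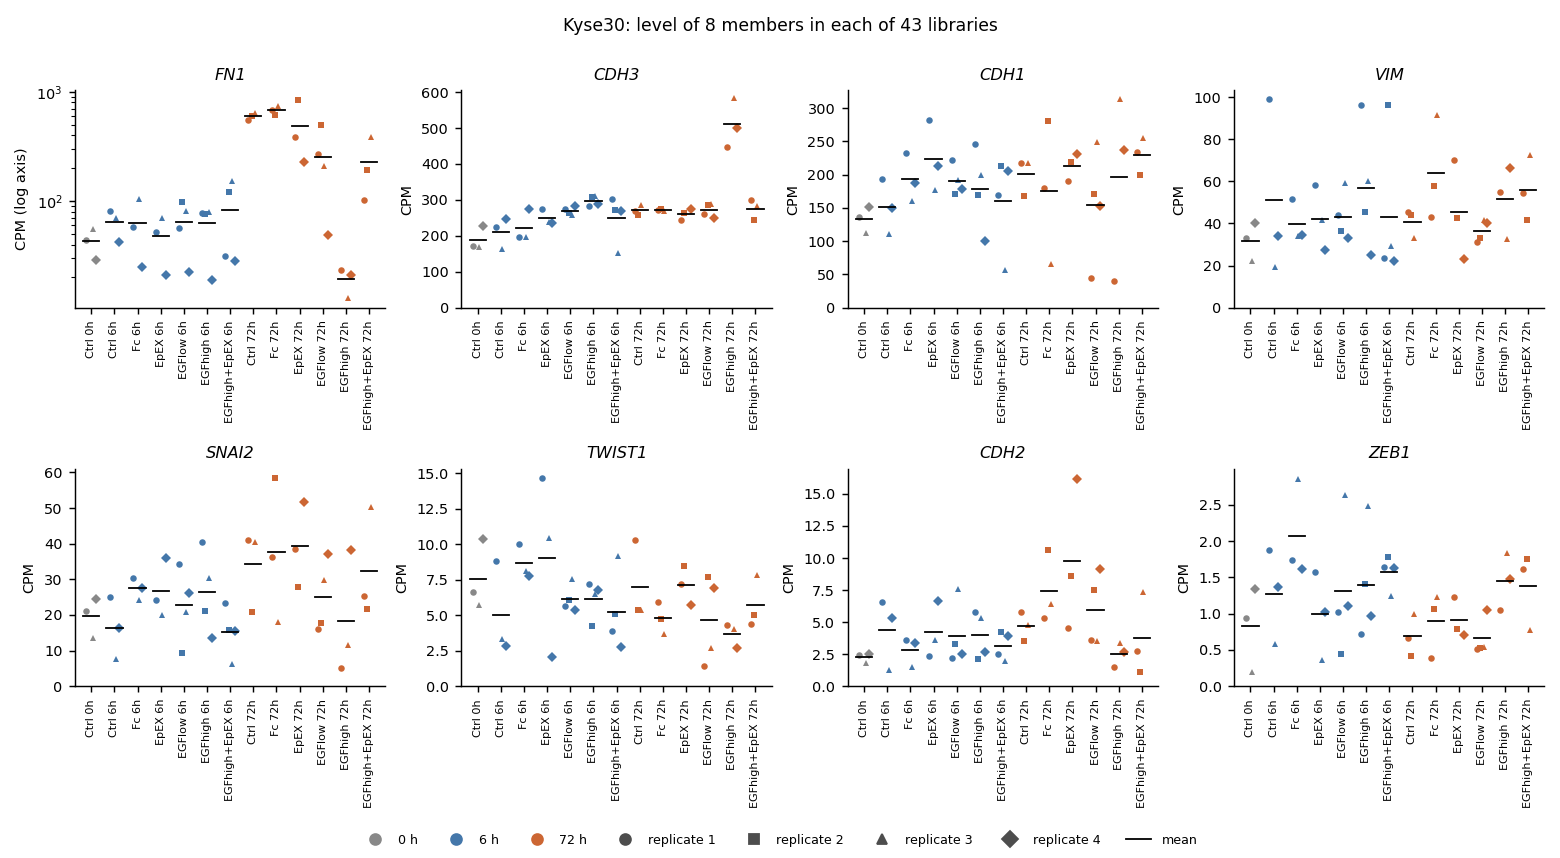
Level of the 8 tested members (CPM, with a log axis for FN1 and linear axes for the others) in each of 43 Kyse30 libraries, by group along the horizontal axis, with points for libraries (color for time, shape for replicate) and bars for group means. FN1 lies between 555 and 745 CPM in untreated and Fc cells at 72 h and between 13.01 and 23.4 CPM with EGFhigh at 72 h, and CDH3 is highest with EGFhigh at 72 h.

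FN1, which spans chr2:215360440-215436172 on the minus strand (GRCh38, GENCODE 29), was the member that moved most in Kyse30. At 0 and 6 h its level was 18.8 to 151 CPM over 24 libraries, with a median of 57.3 CPM. At 72 h it was 555, 600, and 633 CPM in the 3 untreated libraries and 685, 615, and 745 CPM in the 3 Fc libraries. These 6 values lie above all libraries of 0 and 6 h. With EGFhigh at 72 h FN1 was 23.4, 13.01, and 21.2 CPM, below every other library of 72 h. FN1 was 27.9-fold lower with EGFhigh than in untreated cells at 72 h, with a log2FC of -4.80 (SE 0.69, 95% interval -6.18 to -3.42, adjusted p = 1e-05, edgeR, n = 3 and 3). The mean was 19.2 ± 5.46 CPM with EGFhigh and 596 ± 39.4 CPM without (SD). In the 2 replicate numbers that both groups share, the untreated library exceeded the treated one 23.7-fold (replicate 1) and 48.6-fold (replicate 3).

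Of the 8 members tested at 72 h, 1 was higher (CDH3) and 1 lower (FN1) with EGFhigh, against 6.2% of all 15350 genes called, that is 3.04% higher and 3.16% lower. A gene was called where its adjusted p did not exceed 0.05 and its log2FC lay beyond 0.5 in either direction. The groups did not overlap in 5 of the 8 members, against 23.9% of all genes. The median log2FC of the members was -0.35, beside -0.03 over all genes.

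CDH3 rose with EGFhigh at 72 h. It was 269, 257, and 285 CPM in untreated cells and 448, 583, and 501 CPM with EGFhigh. Every EGFhigh library at 72 h lay above the other 40 Kyse30 libraries, which ranged from 153 to 310 CPM. The mean rose from 270.5 ± 13.8 to 511 ± 68.3 CPM, 2.08-fold (log2FC 1.06, SE 0.19, 95% interval 0.67 to 1.44, adjusted p = 0.00026, edgeR). In GENCODE 29 on GRCh38 the gene spans chr16:68636189-68722616 on the plus strand, 14608 bases before CDH1 on the same strand. Another gene, AC126773.2, overlaps it with a median of 1.78 CPM in Kyse30.

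CDH1 gave no such picture. It was 217, 168, and 217 CPM in untreated cells at 72 h, and 39.9, 313, and 236 CPM with EGFhigh. The EGFhigh libraries thus lay on both sides of the untreated ones, and the log2FC was 0.09 (95% interval -0.80 to 0.98, adjusted p = 0.95, edgeR). The value of 39.9 CPM belonged to replicate 1, one of the 5 libraries that stood apart. Of these 5, 4 held the 4 lowest CDH1 levels of the line (39.9 to 65.0 CPM), while the fifth lowest level was 100.1 CPM. The deviations of CDH1 from its group means correlated above 0.8 with those of 309 of 10250 other genes over the 43 libraries, compared with at most 1 gene for the other 5 members of at least 5 CPM. The part of these libraries in the CDH1 result was measured by leaving them out: without the 5 libraries, the log2FC was 0.57 (adjusted p = 0.19).

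The transcription factors were not called at 72 h. SNAI2 was 41.04, 20.9, and 40.6 CPM in untreated cells and 5.05, 11.5, and 38.4 CPM with EGFhigh, so that the groups overlapped. Its log2FC was -0.79 (95% interval -1.82 to 0.24, adjusted p = 0.42, edgeR). With 1 library left out at a time, the log2FC of SNAI2 moved between -1.93 and -0.34 (adjusted p from 0.032 to 0.82, edgeR). The value of -1.93 was that without EGFhigh replicate 4, which passed the test. The lowest SNAI2 level, 5.05 CPM, belonged to EGFhigh replicate 1, one of the libraries that stood apart. TWIST1 was 10.3, 5.38, and 5.35 CPM in untreated cells and 4.32, 4.005, and 2.68 CPM with EGFhigh. The TWIST1 groups did not overlap, and the log2FC was -0.79 (95% interval -1.86 to 0.27, adjusted p = 0.44, edgeR). ZEB1 was 0.668, 0.414, and 0.990 CPM in untreated cells and 1.05, 1.84, and 1.48 CPM with EGFhigh. All of these values correspond to few counts, and the interval of the ZEB1 log2FC of 1.17 ran from -0.59 to 2.94 (adjusted p = 0.50, edgeR).

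N-cadherin and vimentin were not called either. CDH2 was 5.82, 3.52, and 4.75 CPM in untreated cells at 72 h and 1.47, 3.34, and 2.68 CPM with EGFhigh. The CDH2 values with EGFhigh were all below the untreated ones, with a log2FC of -0.79 (95% interval -2.07 to 0.48, adjusted p = 0.54, edgeR). VIM was 45.3, 43.9, and 33.1 CPM in untreated cells and 55.2, 32.7, and 66.4 CPM with EGFhigh. The VIM groups overlapped, and its log2FC was 0.49 (95% interval -0.41 to 1.39, adjusted p = 0.61, edgeR).

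EGFlow left an intermediate level of FN1. It was 269, 494, 207, and 49.3 CPM over 4 libraries at 72 h, all below the 3 untreated libraries. The log2FC against untreated cells was -1.20 (95% interval -2.29 to -0.12), but the adjusted p was 1 in edgeR. In this comparison edgeR called 0% of the genes, with 439 genes at an unadjusted p under 0.05. FN1 was the single member among those 439, and DESeq2 called 0 members. The library at 49.3 CPM was replicate 4, and leaving out 1 library at a time moved the log2FC between -1.70 and -0.86. CDH3 was 271 ± 18.4 CPM with EGFlow at 72 h (SD, n = 4), beside 270.5 ± 13.8 CPM in untreated cells.

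The concentrations of EGF were also compared with each other at 72 h, where 3.73% of genes were called, 2.03% higher and 1.71% lower with EGFhigh. Of the 8 tested members, 1 was higher and 1 lower. FN1 was 12.1-fold lower with EGFhigh than with EGFlow (log2FC -3.60, SE 0.64, 95% interval -4.88 to -2.32, adjusted p = 0.0003, edgeR). CDH3 was 2.01-fold higher (log2FC 1.01, SE 0.17, 95% interval 0.65 to 1.36, adjusted p = 0.00024, edgeR). Neither gene overlapped between the groups. Groups did not overlap in 4 of the 8 tested members, against 12.7% of all genes. The other 6 tested members were not called, and the closest was CDH2 with a log2FC of -1.18 (95% interval -2.40 to 0.03, adjusted p = 0.34, edgeR).

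Adding EpEX to EGFhigh gave FN1 and CDH3 levels apart from those with EGFhigh alone. FN1 was 103, 190.4, and 387 CPM with EGFhigh+EpEX at 72 h, all above the 3 EGFhigh libraries. It was 10.9-fold higher than with EGFhigh alone (log2FC 3.44, SE 0.65, 95% interval 2.14 to 4.75, adjusted p = 0.00083, edgeR). CDH3 was 299, 245, and 282 CPM with EGFhigh+EpEX, all below EGFhigh alone. In the Ctrl, Fc, EGFlow, and EpEX libraries of 72 h CDH3 ran from 243 to 287 CPM, a range that the highest of the 3 exceeded. Its log2FC was -1.01 (SE 0.19, 95% interval -1.40 to -0.63, adjusted p = 0.0008, edgeR). In this comparison 3.58% of genes were called (1.86% higher and 1.72% lower), and groups did not overlap in 3 of the 8 members tested, against 21.1% of all genes. The EGFhigh libraries are the same in this comparison and in those with Ctrl and EGFlow, so that the 3 results are not independent.

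**Figure D2:**
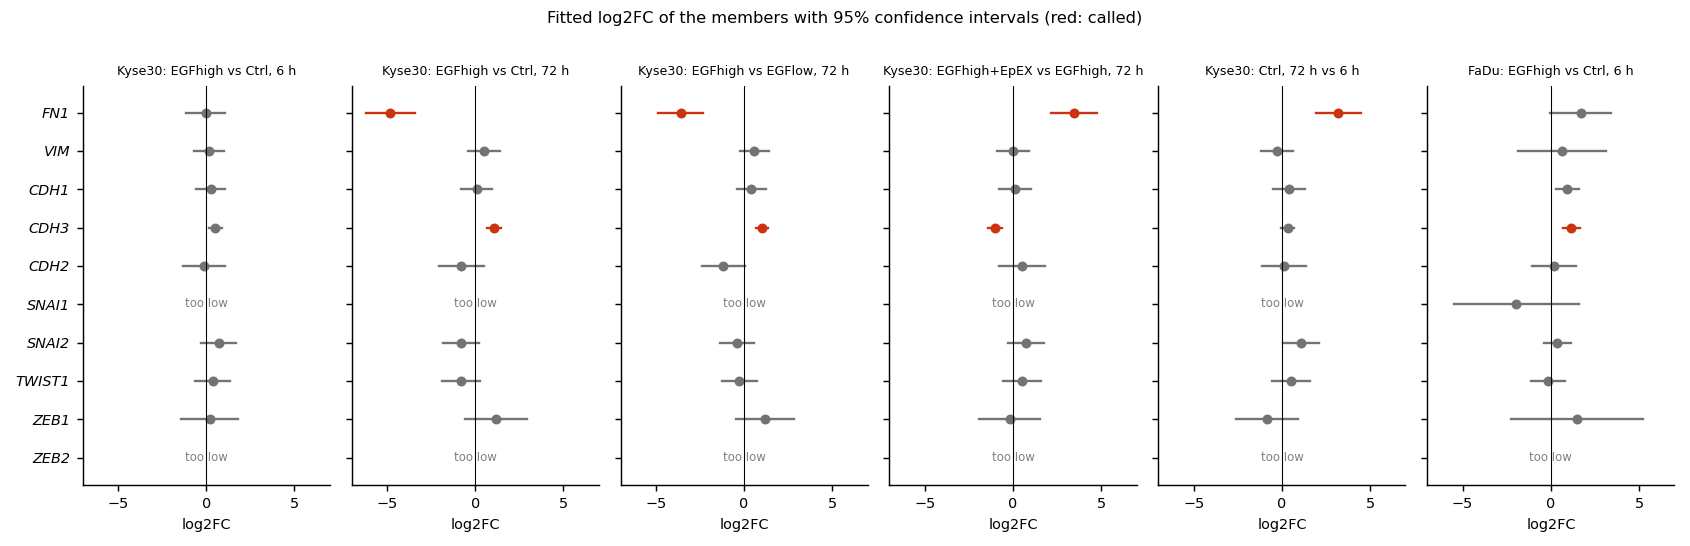
Fitted log2FC of each member (horizontal axis) with its 95% interval in 5 Kyse30 comparisons and in FaDu with EGFhigh at 6 h, with called members in red, others in gray, and untested ones marked as too low. FN1 (-4.80) and CDH3 (1.06) lie on opposite sides of 0 with EGFhigh at 72 h, and on the other sides (3.44 and -1.01) for EGFhigh+EpEX against EGFhigh.

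Against its own control, EGFhigh+EpEX at 72 h had no called member. FN1 was 227 ± 145 CPM with EGFhigh+EpEX and 681 ± 64.9 CPM with Fc, and the groups did not overlap. The log2FC was -1.53 (95% interval -2.73 to -0.34, adjusted p = 1, edgeR), in a comparison where edgeR called 0% of genes and 601 genes had an unadjusted p under 0.05. FN1 was the single member among these, and DESeq2 called 0 members. CDH3 was 275 ± 27.9 CPM against 272 ± 2.90 CPM, with a log2FC of 0.07 (95% interval -0.31 to 0.45).

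With EpEX alone at 72 h FN1 was 388, 836, and 228 CPM, the last in replicate 4, a number that Fc at 72 h lacks. These values lay on both sides of the Fc libraries, and the log2FC against Fc was -0.49 (95% interval -1.65 to 0.68, adjusted p = 1, edgeR). None of the 8 tested members was called by edgeR or DESeq2, 0 had an unadjusted p under 0.05, and 0% of all genes were called (554 at an unadjusted p under 0.05). Fc itself against untreated cells at 72 h also had 0 members called by either tool or at an unadjusted p under 0.05, and 0% of genes called (439 unadjusted), with FN1 at a log2FC of 0.17 (95% interval -0.99 to 1.34). CDH3 had a log2FC of -0.02 in that comparison (95% interval -0.40 to 0.36).

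The levels of FN1 at 72 h, ordered by the group mean, ran from EGFhigh (19.2 CPM) over EGFhigh+EpEX (227 CPM), EGFlow (255 CPM), EpEX (484 CPM), and Ctrl (596 CPM) to Fc (681 CPM). EGFhigh differed from its neighbor in this order by the test given above. EGFhigh+EpEX and EGFlow overlapped, as did EGFlow with EpEX and EpEX with both controls, and Ctrl with Fc.

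FN1 also changed with time in untreated cells. It was 80.8, 69.7, and 41.9 CPM at 6 h, all below the untreated libraries of 72 h. FN1 was 9.2-fold higher at 72 h (log2FC 3.20, SE 0.63, 95% interval 1.93 to 4.47, adjusted p = 0.0033, edgeR), where 1.55% of genes were called. It was the single member called by edgeR and by DESeq2. SNAI2 was 25.0, 7.54, and 16.5 CPM in untreated cells at 6 h, overlapping with 72 h, and its log2FC of 1.09 (95% interval 0.05 to 2.13) missed the threshold (adjusted p = 0.35, edgeR). Between 0 and 6 h none of the 8 members was called by edgeR or DESeq2, 0 had an unadjusted p under 0.05, and 0% of genes were called (355 unadjusted).

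With EGFhigh the course over time differed. CDH3 was 284, 308, 310, and 289 CPM at 6 h with EGFhigh, all below the EGFhigh libraries of 72 h (log2FC 0.88, SE 0.17, adjusted p = 0.00057, edgeR, 12.3% of genes called, 6.08% higher). FN1 was 76.9, 76.5, 79.2, and 18.8 CPM at 6 h with EGFhigh, of which replicate 4 lay within the range of 72 h. Its log2FC of -1.57 (95% interval -2.75 to -0.38) missed the threshold (adjusted p = 0.072, edgeR) and passed it without that library (log2FC -1.87, adjusted p = 0.032). The difference of the EGFhigh effect between 72 and 6 h was tested as an interaction, which called 1.01% of genes. FN1 was called, with a log2 difference of -4.77 (SE 0.86, 95% interval -6.51 to -3.03, adjusted p = 0.0017, edgeR). The log2 difference of CDH3 was 0.55 (95% interval 0.03 to 1.07, adjusted p = 0.33).

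FN1 moved with the replicate number too. Among 10 Kyse30 groups with a replicate 4, FN1 was lowest in that replicate in 9, and in 7 of 7 groups at 0 and 6 h. The exception was EGFhigh at 72 h. Untreated, Fc, and EGFhigh+EpEX cells of 72 h had no replicate 4, unlike those with EGFhigh, EGFlow, or EpEX. The FN1 means at 72 h thus cover different replicate numbers, also for EGFhigh+EpEX against EGFhigh. Within the replicate numbers 1 and 3, which EGFhigh and untreated cells share at 72 h, FN1 was lower with EGFhigh by the ratios given above.

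At 6 h no member passed the test in Kyse30. In 7 comparisons of treatments and controls, 56 tests of members gave 0 calls by edgeR, and the smallest adjusted p was 0.123. The fitted log2FC lay between -1.07 (ZEB1 with EpEX against Fc) and 0.79 (TWIST1 with Fc against untreated cells). The smallest p was that of CDH3 with EGFhigh, at 224, 164, and 247 CPM in untreated cells, all below the EGFhigh libraries of 6 h. The log2FC was 0.51 (95% interval 0.15 to 0.87), and DESeq2 called it (adjusted p = 0.043). CDH3 was the single member with an unadjusted p under 0.05 with EGFhigh, where 2.55% of all genes were called (1.34% higher and 1.21% lower), and also with EGFlow, where 1.5% were (0.814% higher). With EGFlow, CDH3 was 274, 264, 258, and 282 CPM, above all untreated libraries, with a log2FC of 0.39 (95% interval 0.03 to 0.74, adjusted p = 0.32, edgeR). The remaining 5 comparisons at 6 h had 0 members at an unadjusted p under 0.05 and 0 calls by DESeq2. Their share of genes called was 4.52% for EGFhigh+EpEX against Fc, 0.0261% for EpEX against Fc, and 0% for the others. FN1 with EGFhigh at 6 h had a log2FC of -0.03 (95% interval -1.15 to 1.09).

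FaDu replicates 3 and 4 gave at most 2 libraries per group. Here 9 members were tested, and ZEB2 was too low, at 3 counts or fewer in 18 of 20 libraries. SNAI1 and ZEB1 passed the filter but were at 3 counts or fewer in 11 and 12 libraries. VIM and FN1 were low in FaDu, with medians of 0.681 CPM (0.339 to 2.79) and 2.21 CPM (0.341 to 4.78). SNAI2 had a median of 17.5 CPM (9.56 to 26.2), TWIST1 of 6.13 CPM (3.12 to 11.2), and CDH2 of 8.52 CPM (2.23 to 16.4). CDH1 had a median of 43.7 CPM (27.7 to 111) and CDH3 of 122 CPM (77.7 to 223).

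**Figure D3:**
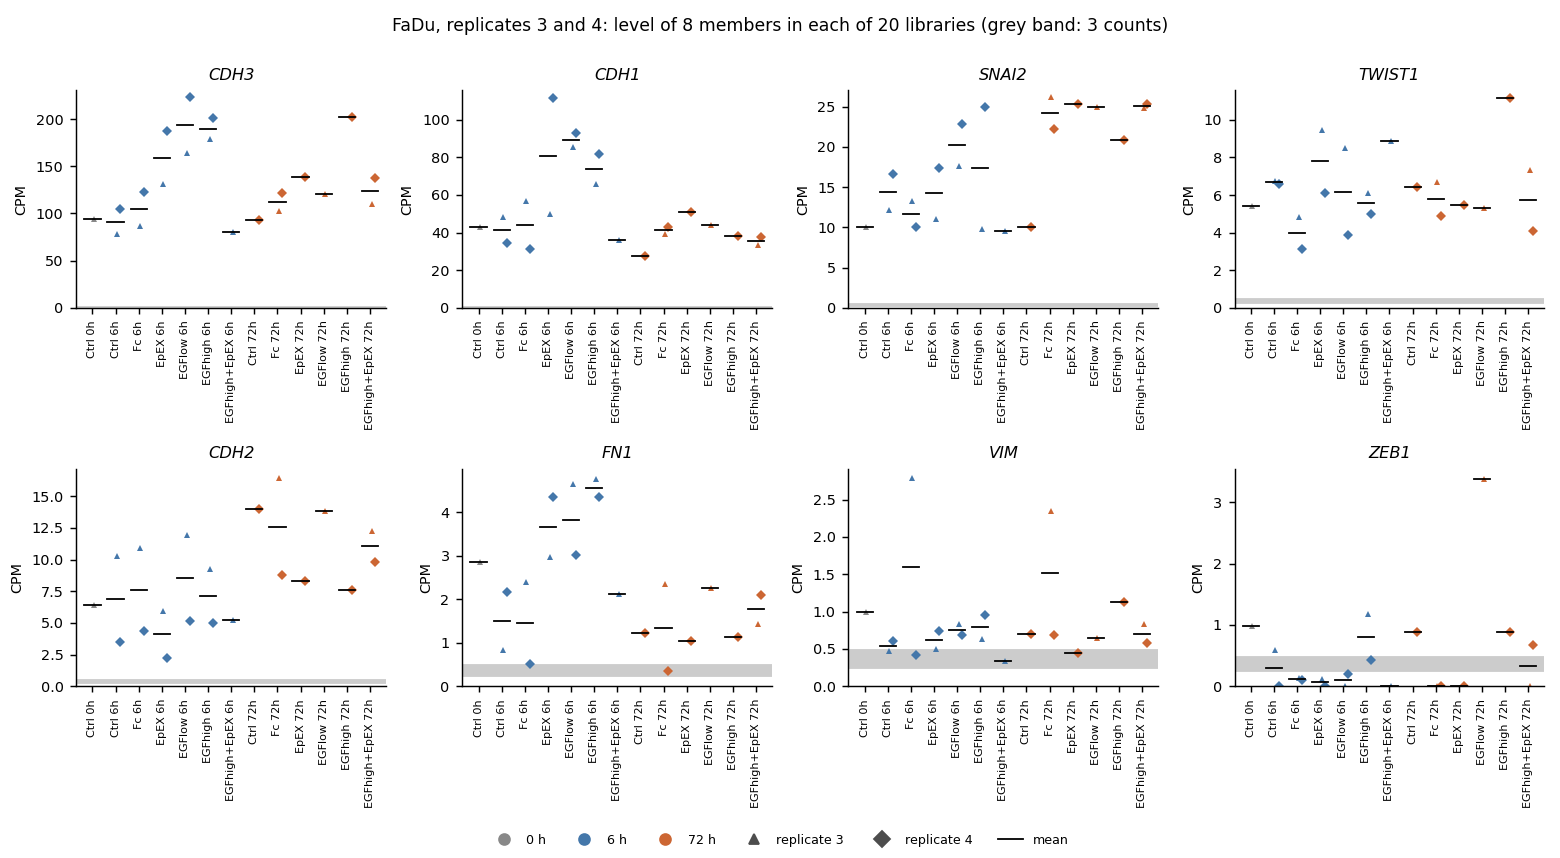
Level of 8 members (CPM, linear axes) in each of 20 FaDu libraries of replicates 3 and 4, by group along the horizontal axis, with points for libraries, bars for group means, and a gray band for the level of 3 counts. The CDH3 libraries with EGFlow and EGFhigh at 6 h (164 to 223 CPM) lie above the untreated ones (77.7 and 105 CPM), and most VIM and ZEB1 values lie near the band.

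In FaDu, CDH3 rose with both EGF concentrations at 6 h, and CDH1 with EGFlow. CDH3 was 77.7 and 105 CPM in untreated cells, 164 and 223 CPM with EGFlow, and 179 and 202 CPM with EGFhigh. All EGF libraries lay above the untreated ones. The rise was 2.25-fold with EGFlow (log2FC 1.17, SE 0.23, 95% interval 0.68 to 1.65, adjusted p = 0.0067, edgeR) and 2.21-fold with EGFhigh (log2FC 1.15, SE 0.23, 95% interval 0.66 to 1.63, adjusted p = 0.0085, edgeR). Of the 9 tested members 2 were called with EGFlow and 1 with EGFhigh, all higher, against 3.45% and 3.06% of all genes. Groups did not overlap in 5 of the 9 members in either comparison, against 43.5% and 41.6% of all genes.

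CDH1 was 48.1 and 34.6 CPM in untreated FaDu cells, 85.6 and 92.7 CPM with EGFlow, and 66.0 and 81.9 CPM with EGFhigh at 6 h. Both treatments lay above the untreated libraries. CDH1 passed the test with EGFlow (log2FC 1.20, SE 0.31, 95% interval 0.54 to 1.86, adjusted p = 0.041, edgeR) and not with EGFhigh (log2FC 0.93, 95% interval 0.27 to 1.58, adjusted p = 0.15, edgeR). EGFhigh and EGFlow themselves differed in CDH1 by a log2FC of -0.27 (95% interval -0.91 to 0.37), and that comparison had 0 members called by edgeR or DESeq2, 0 at an unadjusted p under 0.05, and 0% of genes called (393 unadjusted). The FaDu calls rested on few libraries. The CDH1 call with EGFlow was lost whichever of the 4 libraries was left out (log2FC 0.98 to 1.45), and the CDH3 calls were lost without Ctrl replicate 3 (log2FC 0.97 with EGFlow and 0.94 with EGFhigh), without EGFlow replicate 4 (0.93), or without EGFhigh replicate 4 (1.07). With all FaDu libraries, none of these calls held (log2FC of 0.29 for CDH3 and 0.70 for CDH1 with EGFlow, and 0.36 for CDH3 with EGFhigh), and at a mean of at least 5 CPM the CDH1 call was lost (log2FC 1.17, adjusted p = 0.060, edgeR).

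FN1 in FaDu was 0.827 and 2.16 CPM in untreated cells at 6 h, 4.66 and 3.01 CPM with EGFlow, and 4.78 and 4.34 CPM with EGFhigh. The EGF libraries were above the untreated ones, at levels of a few CPM, and the log2FC was 1.69 with EGFhigh (95% interval -0.04 to 3.43, adjusted p = 0.37, edgeR). VIM had a log2FC of 0.63 with EGFhigh (95% interval -1.85 to 3.12), and that of SNAI2 was 0.35 (95% interval -0.41 to 1.12).

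EpEX in FaDu at 6 h was compared with Fc, with 3.5% of genes called. CDH1 was 57.0 and 31.1 CPM with Fc and 49.7 and 111 CPM with EpEX, and CDH3 was 86.8 and 123 CPM with Fc and 131 and 187 CPM with EpEX. The groups overlapped in CDH1 and not in CDH3. Groups did not overlap in 4 of the 9 tested members, against 41.1% of all genes. No member was called by edgeR, while 3 had an unadjusted p under 0.05, namely CDH1 (log2FC 0.98, 95% interval 0.33 to 1.64, adjusted p = 0.11), CDH3 (0.71, 0.23 to 1.19, adjusted p = 0.11), and TWIST1 (1.09, 0.10 to 2.08, adjusted p = 0.30). With 1 library left out, the CDH1 log2FC moved between 0.31 (without EpEX replicate 4) and 1.49 (without Fc replicate 3), and CDH1 was called without EpEX replicate 3 (1.43, adjusted p = 0.0081, edgeR). DESeq2 called CDH3 (adjusted p = 0.050). Fc against untreated FaDu cells at 6 h had 0 members called by edgeR or DESeq2, 0 at an unadjusted p under 0.05, and 0% of genes called (275 unadjusted).

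At 72 h FaDu replicates 3 and 4 allowed the comparison of EGFhigh+EpEX with Fc and of Fc with its own 6 h level. The former had 0 of 9 members called by edgeR or DESeq2 and 0 at an unadjusted p under 0.05, with 0.818% of genes called. CDH3 had a log2FC of 0.19 there (95% interval -0.29 to 0.67) and CDH1 one of -0.17 (95% interval -0.83 to 0.49). SNAI2 was 13.3 and 9.98 CPM with Fc at 6 h and 26.2 and 22.3 CPM at 72 h. The SNAI2 groups did not overlap, and the log2FC of 1.01 (95% interval 0.23 to 1.78) missed the threshold (adjusted p = 0.18, edgeR, 2.88% of genes called). It was the single member at an unadjusted p under 0.05, and DESeq2 called 0. Untreated and EGFhigh FaDu cells of 72 h had 1 library each among replicates 3 and 4, with CDH3 at 92.8 and 202 CPM, CDH1 at 27.7 and 37.9 CPM, and VIM at 0.706 and 1.13 CPM. With 1 library in each arm, no test of these was run.

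Between the libraries of the lines, VIM and FN1 differed most. These sets of libraries also differed in the reads themselves. The median share of reads that matched several places was 47.1% in FaDu replicates 3 and 4 and 33.7% in Kyse30. A difference between the lines cannot be told apart here from a technical one between the sets, and the part of the latter was not tested. In untreated cells at 6 h, VIM was 99.2, 19.5, and 34.2 CPM in Kyse30 and 0.472 and 0.601 CPM in FaDu. Every Kyse30 library lay above both FaDu libraries, and the level was 87.6-fold higher (log2FC 6.45, 95% interval 4.92 to 7.99, adjusted p = 1.7e-09, edgeR). The FaDu values of VIM lay near the level of 3 counts, 0.354 and 0.361 CPM in these libraries, so the size of this ratio is uncertain. In the same FaDu libraries FN1 was 0.827 and 2.16 CPM, also low. FN1 was 41.7-fold higher in Kyse30 (log2FC 5.38, 95% interval 3.61 to 7.16, adjusted p = 3.6e-06), CDH1 3.58-fold (log2FC 1.84, 95% interval 0.85 to 2.83, adjusted p = 0.0039), and CDH3 2.29-fold (log2FC 1.20, 95% interval 0.74 to 1.65, adjusted p = 4.5e-05). Thus 4 of 10 members were called, all higher in Kyse30, against 22.4% of all genes called in either direction and 12% higher. The 10 members tested across the lines include SNAI1 and ZEB2, which held 3 counts or fewer in 51 and 43 of 63 libraries. None of the 4 calls held when the libraries labelled FaDu replicates 1 and 2 were added (log2FC of 3.25 for VIM, 2.40 for FN1, 0.77 for CDH1, and 0.83 for CDH3), and CDH1 lost its call without FaDu Ctrl replicate 4 (log2FC 1.62, adjusted p = 0.086).

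**Figure D4:**
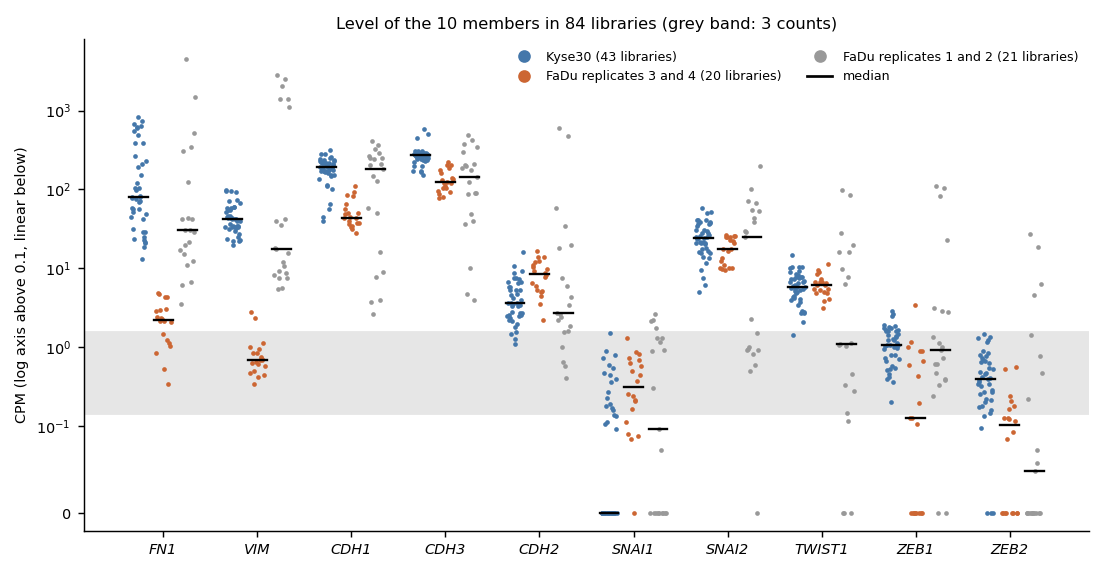
Level of the 10 members (CPM, log axis above 0.1 and linear below) in all 84 libraries of Kyse30, FaDu replicates 3 and 4, and FaDu replicates 1 and 2, with points for libraries, bars for medians, and a gray band for the level of 3 counts. VIM and FN1 are lowest in FaDu replicates 3 and 4 and reach 2828 and 4570 CPM in the libraries labelled FaDu replicates 1 and 2.

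Whether the EGFhigh effect at 6 h differed between the lines was tested as an interaction. It called 0.0611% of genes and 0 of 10 members by edgeR or DESeq2. CDH3 was the single member at an unadjusted p under 0.05, with a log2 difference (Kyse30 minus FaDu) of -0.61 (95% interval -1.21 to -0.01, adjusted p = 1, edgeR). The corresponding interaction for EpEX called 0.127% of genes, 0 members by edgeR or DESeq2, and 0 members at an unadjusted p under 0.05.

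Other genes of the same pathways were described from lists chosen by role, with earlier results of these data known. Their counts beside the share of all genes are thus a description and no independent test. With EGFhigh at 72 h in Kyse30, 3.04% of all genes were called higher and 3.16% lower. With EGFhigh at 72 h in Kyse30, 9 of 12 further EMT transcription factors were tested, of which 1 was higher (HMGA2, a chromatin protein, log2FC 0.93, adjusted p = 0.029) and 1 lower (SOX4, log2FC -1.94, adjusted p = 0.00017), with a median of -0.34 beside -0.03 over all genes. Among 11 epithelial transcription and splicing factors 0 were called by edgeR (median 0.39), and among 7 tested fibronectin receptors and partners also 0 (median 0.47). Of 12 catenins and adherens junction adaptors 3 were higher, which were NECTIN4 (log2FC 1.90), JUP, encoding plakoglobin (0.87), and VCL, encoding vinculin (0.85), with a list median of 0.08. Of 13 tight junction and epithelial surface genes 3 were higher, CLDN3 (2.15), TJP3 (1.48), and CLDN7 (1.07), and CLDN1 was lower (-1.39), with a median of 0.48. Of 16 tested mesenchymal cytoskeleton and matrix genes 2 were higher, LGALS1 (1.44) and S100A4 (1.25), and 2 lower, the matrix genes TNC (-1.88) and THBS1 (-1.54), with a median of -0.07. For EGFhigh at 72 against 6 h, 5 of the 11 epithelial factors were higher (OVOL1, ELF3, KLF5, EHF, and ESRP1) and 0 lower. In that comparison 6.08% of all genes were higher. KLF5 was also higher in untreated cells at 72 against 6 h. Of both lists of factors, EHF, TWIST2, and HMGA2 were higher and SOX4 lower with EGFhigh than with EGFlow at 72 h. There 2.03% of all genes were higher and 1.71% lower.

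Squamous markers were described in the same way. Of 10 squamous markers 3 were higher with EGFhigh at 72 h, against 3.04% of all genes. These were KRT6A (log2FC 4.66), KRT17 (2.22), and SFN (1.67), and the median of the list was 0.62. The keratin genes KRT5 and KRT14 of this list were not called. Their part in the levels of the members was not tested. With EpEX added to EGFhigh, JUP (-0.79), CLDN3 (-1.99), CLDN7 (-0.91), S100A4 (-1.28), KRT6A (-2.39), and SFN (-1.41) were lower than with EGFhigh alone, and CLDN1 (1.25) and SOX4 (1.68) higher. Here 1.86% of all genes were called higher and 1.72% lower. HMGA2, NECTIN4, VCL, TJP3, LGALS1, TNC, THBS1, and KRT17, which were called with EGFhigh, were not called in this comparison, with log2FC between -1.48 (KRT17) and 1.44 (TNC). The comparisons share the EGFhigh libraries, so that opposite signs in them are not independent.

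At 6 h with EGFhigh in Kyse30, 4 of the 13 other lists held a called gene, beside 1.34% of all genes called higher and 1.21% lower. The fibronectin receptor subunit ITGB1 (log2FC 0.80), the syndecan SDC4 (1.15), VCL (1.18), and KRT6A (3.11) were higher, and the epithelial regulators GRHL2 (-1.06) and ESRP1 (-0.92) were lower. In FaDu with EGFhigh at 6 h, 2.29% of all genes were called higher and 0.774% lower. Of 7 tested fibronectin receptors and partners 3 were higher, ITGB1 (0.95), ITGB6 (1.34), and SDC4 (1.60). Of 10 tested epithelial factors, KLF5 (1.85) was higher, and GRHL2 (-0.85) and ELF3 (-1.81) were lower. Of 13 tight junction genes, CLDN1 (3.02) and TJP1 (1.05) were higher and CLDN4 (-0.86) lower. CTNNB1, which encodes β-catenin (0.72), VCL (1.33), and HMGA2 (1.53) were higher too, as were the squamous markers KRT17 (2.09) and SFN (1.66), while SOX4 fell by 1.14 on the log2 scale. Of the 14 tested mesenchymal genes in FaDu 2 were higher with EGFhigh, THBS1 (3.33) and TAGLN (4.52), with a list median of 0.31 beside -0.01 over all genes. With EGFlow 4 of these 14 were higher, TNC (2.53), THBS1 (3.50), TAGLN (4.43), and TPM1 (1.08), against 2.55% of all genes. With EpEX against Fc 3 were higher, TNC (2.25), THBS1 (3.36), and TAGLN (4.82), against 2.45% of all genes.

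The genes whose log2 CPM over the 43 Kyse30 libraries resembled that of a member most are given as a description, since the libraries share treatments and depth. For FN1 they were SLC2A3 (Pearson's r = 0.901), PPP2R2B (0.896), and TCF7L1 (0.886). For CDH3 they were JUP (0.779), ACADVL (0.763), and LSR (0.761). For CDH1 they were LLGL1 (0.932), NCSTN (0.929), and PDE6D (0.929), and for SNAI2 they were MCL1 (0.812), KDM6B (0.786), and MYC (0.781). For VIM they were AKR1B1 (0.789), COL1A2 (0.717), and COL1A1 (0.670), and for TWIST1 no gene exceeded 0.623 (NCAPG2).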

How the data were processed

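Libraries had been prepared with the QuantSeq 3′ FWD kit. For each library the authors deposited whole-number counts of reads per gene from htseq-count, with no normalization and no pooling of replicates. The submitters' processing notes name STAR, HTSeq, and GRCh38 (hg38). Strand setting, annotation, and use of molecular identifiers are not given in the sources used here. Reads that matched several places, no gene, or several genes stayed out of all totals and tests. Their share was 33.7 to 52.1% per Kyse30 library and 50.3 to 60.3% per library of FaDu replicates 3 and 4.

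Symbols came from GENCODE 29 (58275 of 58395 identifiers). Among the 84 libraries, 0 pairs had identical counts. Groups follow the line, agent, and hours that the labels give. For FaDu, replicates 3 and 4 were used, with at most 2 libraries per group. The members and all gene lists were chosen with earlier results of these data known.

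Genes were filtered by filterByExpr (minimum count 10, minimum total 15), which left 15350 genes in Kyse30, 16022 in FaDu, and 19634 for both lines. The test was the quasi-likelihood one of edgeR 4.0.16 under R 4.3.3 (TMM factors, 1 fit over all groups of a line, Benjamini-Hochberg adjustment over all genes). CPM values use the total count on genes, without TMM factors. Intervals are 95% intervals of the log2FC. The rule for named genes held all 10 members in every comparison and the called genes of the other lists. The text gives in full the members that were called or near a call and the rest by counts and ranges, and list genes mainly for the EGFhigh comparisons.

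Alternatives were DESeq2 1.42.0, RLE size factors, no filter, a mean of at least 5 CPM, the replicate number as a block, only the groups compared, untreated and Fc libraries together as control, all FaDu libraries, and each library left out. Leaving out the 5 libraries that stood apart and a crossed pairing were added after seeing the data. When tested on simulated data for EGFhigh against Ctrl at 72 h in Kyse30 (14800 genes), edgeR recovered 30% of genes changed by 1 and 83% of those changed by 2 on the log2 scale. The changed genes had a mean of at least 5 CPM, which CDH2 and ZEB1 did not reach in Kyse30, so the rates do not cover these members. The simulated libraries held no deviations shared between genes. Promoter windows came from RefSeq (GRCh38.p14).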

Additional observations from a re-analysis of the deposited data

Results flagged for a closer look

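Among 32 sets of 4 Kyse30 libraries of a tested member in 1 group, 3 held a library far from the other 3. About 1 in 20 sets would do so by chance. FN1 was 18.8 CPM in EGFhigh 6 h replicate 4, below 76.5 to 79.2 CPM in the other 3. VIM was 96.5 CPM in EGFhigh+EpEX 6 h replicate 2, above 22.1 to 29.4 CPM. ZEB1 was 1.04 CPM in EGFlow 72 h replicate 4, above 0.517 to 0.540 CPM, where all values stand for few counts.

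The effect of EGFhigh on FN1 in Kyse30 differed between 72 and 6 h, with a log2 difference of -4.77 (adjusted p = 0.0017, edgeR interaction).

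The libraries labelled FaDu replicates 1 and 2 were used in no main comparison, and some of the treated ones held members far above the highest untreated library of the set. The highest treated level was 597 CPM for CDH2 (58.0 CPM in the highest untreated library), 4570 CPM for FN1 (43.5 CPM), 2828 CPM for VIM (18.2 CPM), 109 CPM for ZEB1 (3.09 CPM), and 27.1 CPM for ZEB2 (0.221 CPM). VIM exceeded 1000 CPM in 6 of these 21 libraries. Of the 6, ZEB1 was over 20 CPM in 4 and CDH1 under 20 CPM in 4. In the other 15 libraries VIM reached 42.6 CPM at most and ZEB1 3.09 CPM. The 6 included Fc-treated cells. In the whole set the fibroblast markers summed to up to 5503 CPM and the squamous markers to as little as 142 CPM. Their part in these levels was not tested.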

How the results depend on the processing

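In Kyse30, the FN1 and CDH3 calls with EGFhigh at 72 h against Ctrl, EGFlow, and EGFhigh+EpEX, the FN1 rise of untreated cells between 6 and 72 h, and the FN1 interaction kept their direction and call under all alternatives run. Of 214 values of called members under alternatives, 197 kept direction and call, 17 lost the call, and 0 turned. All 17 lost calls concerned FaDu or the comparison of the lines. The larger changes in the number of members called were as follows, and unless stated the cause was not tested. For EGFhigh against Ctrl at 72 h in Kyse30, SNAI2 was called besides FN1 and CDH3 without EGFhigh replicate 4 (log2FC -1.93, adjusted p = 0.032, edgeR). DESeq2 called 1 member instead of 0 for EGFhigh at 6 h in Kyse30 and for EpEX at 6 h in FaDu. Without a filter, 1 member instead of 0 was called for EGFlow at 72 h (FN1), EGFhigh+EpEX against Fc at 72 h (FN1), and the line by EpEX interaction (FN1), and 2 were called for EGFhigh at 72 against 6 h (instead of 1), EGFhigh at 6 h in FaDu (instead of 1), and EpEX at 6 h in FaDu (instead of 0). For EGFhigh at 72 against 6 h, 2 were also called without the 5 libraries that stood apart (CDH1 and CDH3), and with only the groups compared (CDH3 and FN1), and 1 to 2 with 1 library left out. For EGFlow at 6 h in FaDu, 1 instead of 2 was called at a mean of at least 5 CPM, 0 with all FaDu libraries, and 0 to 1 with 1 library left out. For EGFhigh at 6 h in FaDu, 0 were called with all FaDu libraries and 0 to 1 with 1 library left out, and for EpEX at 6 h in FaDu 0 to 1. All FaDu libraries together gave 0 instead of 4 for the comparison of the lines.

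With the replicate number as a block, 1 member (CDH3) instead of 0 was called for EpEX at 6 h in FaDu, and no other member call changed. The replicate numbers were not taken as pairs, since not every same-numbered pair correlated over 0.1. The mean correlation of deviations was 0.12 (-0.286 to 0.551) over 217 Kyse30 pairs, of which 120 were over 0.1, beside -0.041 for different numbers, and pairs reached 0.257 to 0.551 for EGFhigh against EGFlow at 72 h. In FaDu it was 0.161 for 42 pairs. In FaDu, same-numbered libraries of EpEX and Fc at 6 h correlated at -0.21, and with crossed numbers, an alternative chosen after seeing the data, 603 genes and 0 members were called, beside 560 genes without a block.

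In simulated data for EGFlow against Ctrl at 6 h in FaDu (15135 genes), edgeR recovered 42% of genes changed by 1 and 94% of those changed by 2 on the log2 scale. Here too the changed genes had a mean of at least 5 CPM, which SNAI1, ZEB1, VIM, and FN1 did not reach in FaDu. SNAI1 and ZEB2 in Kyse30 and ZEB2 in FaDu were not tested within the line. Both genes passed the filter of the fit over both lines, at 3 counts or fewer in 51 (SNAI1) and 43 (ZEB2) of 63 libraries. SNAI1 and ZEB1 in FaDu were tested with 3 counts or fewer in 11 and 12 of 20 libraries.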
